A study of Homo sapiens with 12 samples.

Results

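The 10 genes described here encode amino acid carriers of the cell surface or their partner subunit. They were chosen by name as SLC1A1, SLC1A5, SLC3A2, SLC6A14, SLC7A1, SLC7A2, SLC7A5, SLC7A8, SLC38A1 and SLC38A2, and all 10 were among the 26485 genes of the table. mRNA was sequenced in 12 libraries of BT474, an established HER2+ breast cancer cell line of wild-type genotype that was grown in medium with serum. Control is day 0, and 3 groups were kept in 1 µM lapatinib, which blocks the kinase activity of HER2 and EGFR, with fresh drug every 3 days. The 3 groups are the drug-tolerant persisters of day 9 (DTP), the expanded persisters of month 6 (DTEP) and the long-term resistant cells of month 9 (LR), and each of the 4 groups has 3 libraries. The Control libraries also carry 1 µM lapatinib as their treatment label, but a title of Control and day 0, and were taken here as untreated. The later groups are what grew from the few cells that outlived the drug in a single line. The study calls the 3 libraries technical replicates and also describes parallel plates, so n counts libraries here, and SDs and p-values may not cover independent derivations of resistance.

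Values are normalised read counts, that is CPM (reads scaled to a fixed total) after the authors' adjustment of library size, and a single read was worth 0.0412 to 0.0576 of them. A library with no read for a gene still allowed a level of up to 3 reads, or 0.124 to 0.173, for counting error only. DTEP replicate 3 stood apart, since over all genes its correlation with the LR libraries was 0.971 to 0.986 and that with the other DTEP libraries 0.934 to 0.962. It was the DTEP library nearest to the LR mean for 7 of the 10 transporters, and for 65.0% of all genes tested. The 8 luminal epithelial markers summed to between 10925 and 11643 in the Control libraries, between 13185 and 15556 at DTP, between 5182 and 6745 at DTEP and between 4657 and 6241 at LR. ERBB2, with means of 6526 in Control and 1774 in LR, carried most of that fall. The markers did not move together, since CDH1 went from 1125 to 75.1 while GATA3 went from 190 to 1251 and FOXA1 from 394 to 799, and EPCAM read 205 in Control and 246 in LR. The 4 leukocyte markers never summed above 3.58, while the 5 fibroblast markers summed to 48.1 to 130 almost wholly through COL1A1. The other 4 of the 5 never passed 0.165, and in each group 2 of them were at 0, DCN and PDGFRB in Control and DTP, DCN and LUM in DTEP, and COL3A1 and LUM in LR. The 3 endothelial markers fell from between 8.14 and 8.85 in Control to between 0.127 and 0.431 in DTEP and LR, mostly through VWF. The proliferation markers MKI67, TOP2A and CCNB1 summed to between 748 and 763 in the Control libraries, only 20.6 to 27.1 at DTP, 977 to 1131 at DTEP and 392 to 711 at LR. These cell states move with the groups, and their part in the changes below was not tested. In such bulk samples, fewer cells expressing a carrier and less of its RNA per cell cannot be told apart.

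Cells take up amino acids through carriers that either concentrate them or trade them across the membrane. Concentrating carriers such as those of the SLC38 family load the cell with small neutral amino acids, above all glutamine, and exchangers such as SLC1A5 and SLC7A5 swap these for others. The glycoprotein SLC3A2 is a heavy chain that brings several SLC7 light chains to the surface, and the leucine they import is read by the growth kinase complex mTORC1. Several of these genes are known to respond to amino acid shortage through the factor ATF4 and to the transcription factor MYC, and many tumours carry them at high levels.

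The DTP cells at day 9 had lower values of 7 of the 10 members in all libraries and higher values of SLC7A5, SLC7A8 and SLC3A2. Tested with limma over all 13794 genes with enough signal, 6 of the 10 transporters fell and 2 rose at an adjusted p below 0.05 in DTP against Control. Over all genes tested 28.8% fell and 25.2% rose by the same rule. The balance depended on the tool, since edgeR on the recovered reads had 3 fall and 3 rise, and DESeq2 5 and 3. SLC1A1 had the smallest log2 change, -1.54 ± 0.21 (SE), and SLC3A2 the largest, 0.98 ± 0.14. None was called with limma by the criteria of the study, which add an absolute log2 change above 2 and called 4.92% of all genes, and edgeR and DESeq2 called 0 members as well. The DTP and Control libraries did not overlap for any of the 10 members, as for 77.3% of all genes, and the median log2 change was -0.76 over the members and -0.01 over all genes. The count of 8 rested partly on single libraries, being 5 without Control replicate 1, Control replicate 2 or DTP replicate 2, 4 without DTP replicate 1 and 10 without DTEP replicate 3.

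Between DTP at day 9 and DTEP at month 6, carriers of glutamine and other small neutral amino acids rose, and so did SLC7A8. The members that fell included SLC6A14 and SLC1A1, whose means in DTEP were only 1.65 and 0.482 normalised read counts. Of the 10 members 4 rose and 5 fell, against 35.7% and 32.6% of all genes. Called members were SLC1A5 upward and SLC6A14 and SLC7A2 downward, and 15.2% of all genes were called. Groups did not overlap for 8 of the 10, as for 67.3% of all genes, and the members' median log2 change was -0.11 beside 0.08. Rescaling by median-of-ratios factors shifted all genes of this comparison by a median of -0.10 on the log2 scale, and no member's side of the threshold changed with it.

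Fewer genes passed the limma threshold between DTEP and LR than in the other steps. Of 13794 genes edgeR had 522 rise and 1181 fall in this step, and DESeq2 1010 and 2083. SLC7A1 and SLC38A2 rose and SLC7A2 fell, where 3.04% of all genes rose and 4.31% fell, and SLC7A2 was the single called member beside 0.681% of all genes. Groups did not overlap for 6 of the 10, as for 22.5% of all genes, and the median log2 change was 0.36 over the members and -0.07 over all genes. The count of 3 was 7 without DTEP replicate 3, 0 without DTEP replicate 2 or LR replicate 1, and 1 without any 1 of the Control libraries, DTP replicate 1, DTP replicate 2, DTEP replicate 1 or LR replicate 2.

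Measured from Control, the long-treated cells differed in most members. In DTEP 3 members were higher and 4 lower, where 29.5% and 28.7% of all genes were. In LR 5 were higher and 4 lower, where 30.2% and 32.6% were. The same 4 were called in both groups, SLC7A8 upward and SLC1A1, SLC6A14 and SLC7A2 downward, with 10.6% of all genes called in DTEP and 12.8% in LR. SLC7A8 was close to the bound of 2 in DTEP, with a log2 change of 2.03 that went down to 1.825 over the leave-one-out fits. Groups did not overlap for 7 members in DTEP and for all 10 in LR, as for 65.6% and 77.0% of all genes. The members' median log2 change was -0.17 in DTEP, beside 0.02 over all genes, and 0.50 in LR, beside -0.03. All comparisons share groups of libraries, so that they are not independent of each other.

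**Figure D1:**
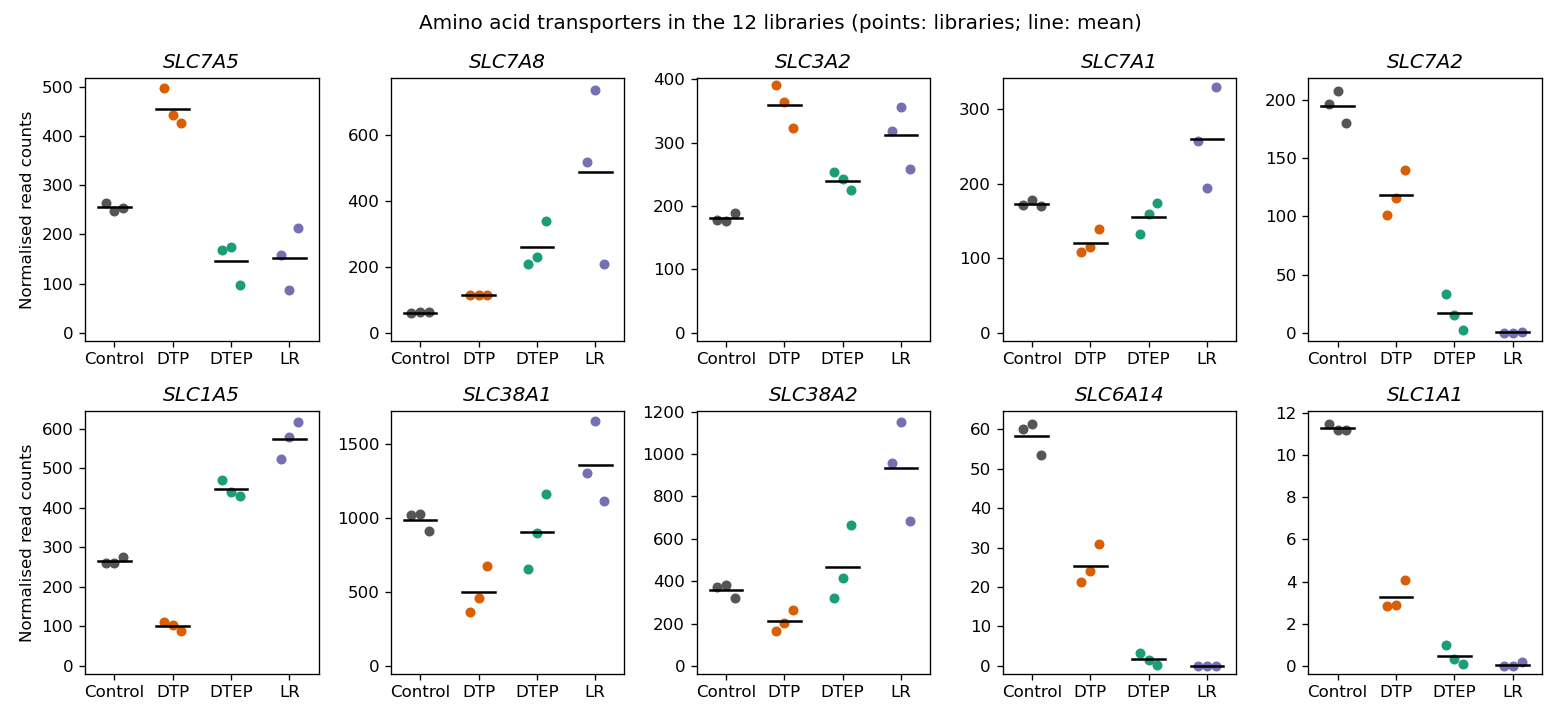
Normalised read counts (linear axis, starting at or just below 0, a separate scale for each gene) of the 10 transporters in Control, DTP, DTEP and LR, with a point for each of the 3 libraries and a line at their mean. SLC7A5 is highest in DTP, SLC1A5 is lowest there and highest in LR, and SLC7A2, SLC6A14 and SLC1A1 come close to 0 in LR.

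**Figure D2:**
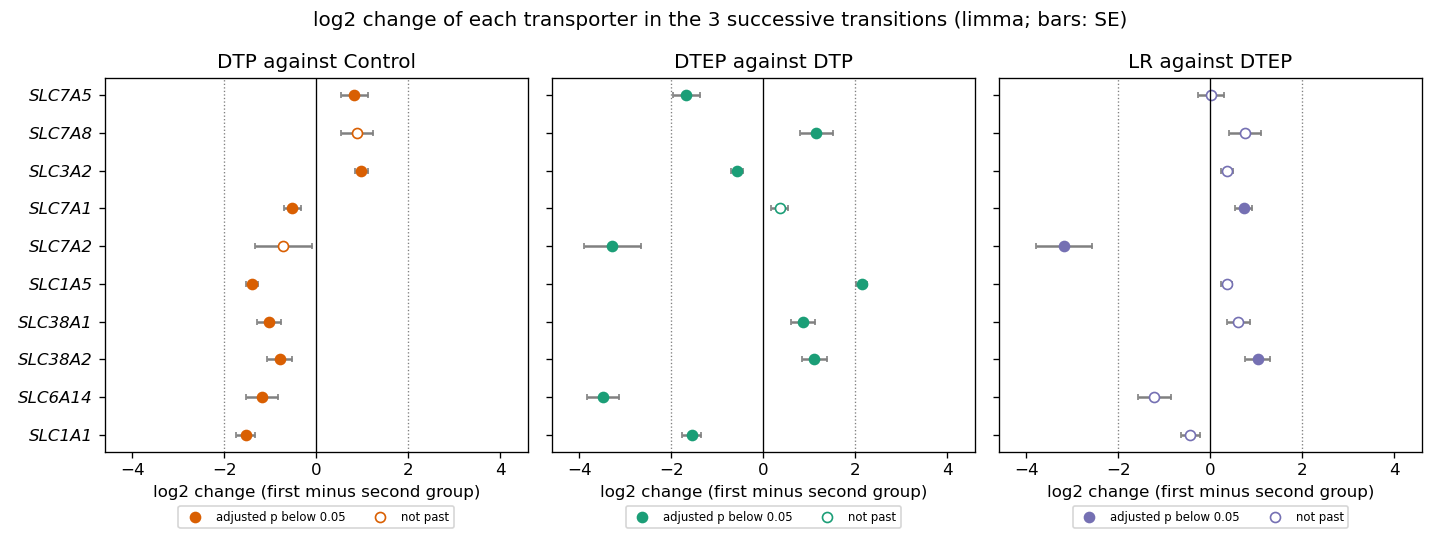
The log2 change of each transporter (horizontal axis, first minus second group) in the 3 successive transitions, with bars for 1 SE. Filled points have a limma adjusted p below 0.05, and dotted lines mark an absolute log2 change of 2, which SLC1A5, SLC6A14 and SLC7A2 pass in DTEP against DTP and SLC7A2 in LR against DTEP.

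SLC7A5 and SLC7A8 are light chains of the exchangers LAT1 and LAT2, which carry leucine and other large neutral amino acids, and SLC3A2 is their common heavy chain. The 2 light chain genes parted ways along the treatment, as the values below show. For each of the pair a promoter window is printed that holds the E-box letters CACGTG, a palindrome that MYC and related factors can recognise. They stand at nearly the same distance from an annotated start. Capitals mark those letters, which begin 130 bases before the start of SLC7A5 and 129 bases before an alternative start of SLC7A8. The other windows of SLC7A8 did not hold them, among these the window at its outermost start (chr14:23183611-23183910). The windows run from 250 bases before to 50 after the start on the minus strand of GRCh38.p14, as RefSeq gives them, at chr16:87869458-87869757 for SLC7A5 and chr14:23154344-23154643 for SLC7A8.
SLC7A5 promoter: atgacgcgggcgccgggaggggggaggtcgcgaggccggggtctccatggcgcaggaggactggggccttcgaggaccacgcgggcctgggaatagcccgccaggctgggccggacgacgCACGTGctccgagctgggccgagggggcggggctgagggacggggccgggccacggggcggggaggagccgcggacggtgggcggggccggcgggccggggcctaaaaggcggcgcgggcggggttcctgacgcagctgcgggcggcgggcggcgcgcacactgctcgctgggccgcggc
SLC7A8 promoter: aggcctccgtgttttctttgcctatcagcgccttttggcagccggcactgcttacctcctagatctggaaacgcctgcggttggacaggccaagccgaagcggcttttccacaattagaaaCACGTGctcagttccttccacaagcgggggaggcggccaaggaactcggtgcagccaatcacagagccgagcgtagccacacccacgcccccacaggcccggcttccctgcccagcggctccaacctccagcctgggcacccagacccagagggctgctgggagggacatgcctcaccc

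RefSeq windows were found for 9 of the 10 members, 17 windows in all, and were searched for 3 motifs on both strands. CACGTG stood in 3 of them, the third being an alternative start of SLC1A5, and in 7.26% of the 35116 promoters of the table. The composite site of CCAAT enhancer and ATF factors, searched as TGATGNAAT, was in none of the members' windows and in 0.991% of all promoters. The estrogen receptor half-site AGGTCA was in 1 window, again of SLC1A5, and in 13.8% of all promoters. The SLC7A5 window is also rich in G and C, at 80.3% against 63.0% in the SLC7A8 window and a median of 58.7% over all promoters. Which start the BT474 cells use was not measured, and a match of letters is a description only.

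SLC7A5 (chromosome 16, 87830023 to 87869507, minus strand) read 264, 248 and 255 normalised read counts in Control and 496, 443 and 427 in DTP. It then read 168, 175 and 96.3 in DTEP and 159, 86.1 and 213 in LR. All DTP libraries were above all Control libraries, which were in turn above every DTEP and LR library, while DTEP and LR overlapped. The mean was 256 ± 8.27 (SD, n = 3) in Control and 456 ± 36.3 in DTP, a log2 change of 0.83 ± 0.29 (SE, adjusted p = 0.0304). This call held by little, since leaving out any 1 of the 6 libraries of the comparison gave adjusted p-values of 0.0525 to 0.0940. From DTP to DTEP the level fell 3.11-fold, to 146 ± 43.6 (log2 change -1.68, adjusted p = 0.000271). LR against DTEP gave a log2 change of 0.01 (adjusted p = 0.980), and its sign turned on leaving out DTEP replicate 3 (-0.26), LR replicate 1 (-0.06) or 3 (-0.27). Against Control the log2 change was -0.85 in DTEP (adjusted p = 0.0250) and -0.84 in LR (adjusted p = 0.0248). The DTEP call was lost without any single Control library (adjusted p 0.0537 to 0.0652) or DTEP replicate 3 (0.0869), and the LR call without any single Control library (0.0522 to 0.0638) or LR replicate 2 (0.107). edgeR on the recovered reads gave an adjusted p of 0.0582 for LR against Control.

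SLC7A8 (chromosome 14, 23125295 to 23183660, minus strand) went the other way over the same months. It read 60.4, 61.9 and 61.8 normalised read counts in Control and 114, 114 and 113 in DTP, with almost no spread within either group. The DTEP libraries read 210, 231 and 340, and the LR libraries 518, 737 and 207, so that LR replicate 3 lay just under the lowest DTEP library. Between Control and DTP the mean rose from 61.4 ± 0.854 to 114 ± 0.214 (SD, n = 3 each), yet the log2 change of 0.88 ± 0.35 missed the threshold (adjusted p = 0.0508). That SE pools all 4 groups, including the wide LR group with an SD of 266. The adjusted p was 1.2e-05 with only the 6 libraries compared, 0.00219 with LR replicate 3 left out, 0.0213 with LR replicate 2 left out, and 0.0378 and 0.04999 with DTEP replicate 3 or 1 left out. It was 0.0392 with edgeR, 0.0188 with DESeq2 and 0.0443 after median-of-ratios scaling. SLC7A8 rose 2.29-fold from DTP to DTEP (log2 change 1.15, adjusted p = 0.0112). It was called against Control in DTEP, at 4.24-fold (log2 change 2.03, adjusted p = 0.000341), and in LR, at 7.94-fold (2.79, adjusted p = 2.4e-05). The DTEP call held by little, since leave-one-out log2 changes ran from 1.825 to 2.17 against the bound of 2. Without DTEP replicate 3, DTEP stood 3.59-fold above Control. LR against DTEP gave a log2 change of 0.75 (adjusted p = 0.148), and 1.28 (adjusted p = 0.00638) without LR replicate 3, and passed with DESeq2 (0.0429).

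SLC3A2 (chromosome 11, 62856109 to 62888860, plus strand), the heavy chain, moved with SLC7A5 at day 9 and less so later. The Control libraries read 178, 176 and 189, the DTP libraries 390, 365 and 322, the DTEP libraries 253, 242 and 224, and the LR libraries 319, 356 and 259. Every treated library was above every Control library, and DTP and LR overlapped. The level rose 1.98-fold from Control to DTP (log2 change 0.98 ± 0.14, adjusted p = 0.000117) and fell again to DTEP (log2 change -0.58, adjusted p = 0.00250). LR stayed higher than Control (log2 change 0.77, adjusted p = 0.000384), while LR against DTEP missed the threshold (0.36, adjusted p = 0.0923) except without LR replicate 3 (adjusted p = 0.0485) and with DESeq2 (0.0304). DTEP against Control passed (0.41, adjusted p = 0.0229), but not without Control replicate 1 (0.0695) or 2 (0.0744), without DTEP replicate 1 (0.0523) or 2 (0.0542), or after median-of-ratios scaling (0.0526).

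Per kilobase of the canonical transcript, the light chains could be set against each other. The ratio of SLC7A8 to SLC7A5 was 0.246 to 0.269 in the Control libraries and 0.247 to 0.286 in the DTP libraries, so that the pair kept its proportion through the rise at day 9. It was 1.34, 1.42 and 3.80 in DTEP and 3.52, 9.21 and 1.05 in LR, and SLC7A8 was therefore above SLC7A5 in all 6 libraries of the long-treated cells. Among all light chains known to pair with SLC3A2, SLC7A5 made up 60.9% to 63.2% of the summed level per kilobase in the Control libraries and 68.6% to 73.5% at DTP, but 15.3% to 32.3% at DTEP and 7.68% to 32.6% at LR. SLC7A8 held between 15.5% and 16.3% in the Control libraries, between 41.4% and 58.2% at DTEP and between 34.2% and 70.7% at LR. SLC7A6, an exchanger of cationic for neutral amino acids, dipped from 20.5% to 22.3% in the Control libraries to 7.91% to 11.1% at DTP, and held 22.9% to 27.7% at DTEP and 18.5% to 26.3% at LR. The cystine carrier SLC7A11 held 0.492% to 0.670% in Control and 1.55% to 6.91% in LR, and its normalised read counts were 5.93, 5.33 and 4.33 in Control and 105, 36.8 and 95.5 in LR (log2 change 3.57, adjusted p = 0.000100). SLC7A7 and SLC7A10 did not pass 0.633 in any library. The ratio of SLC3A2 to the sum of its light chains was 1.03 to 1.10 in the Control libraries, 1.25 to 1.41 at DTP, 0.864 to 1.18 at DTEP and 0.769 to 0.958 at LR. Heavy chain mRNA thus stood furthest above the light chains in DTP and below them in all 3 LR libraries. These ratios were chosen after the values were seen, and use transcript lengths of an annotation other than the one the authors counted on.

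**Figure D3:**
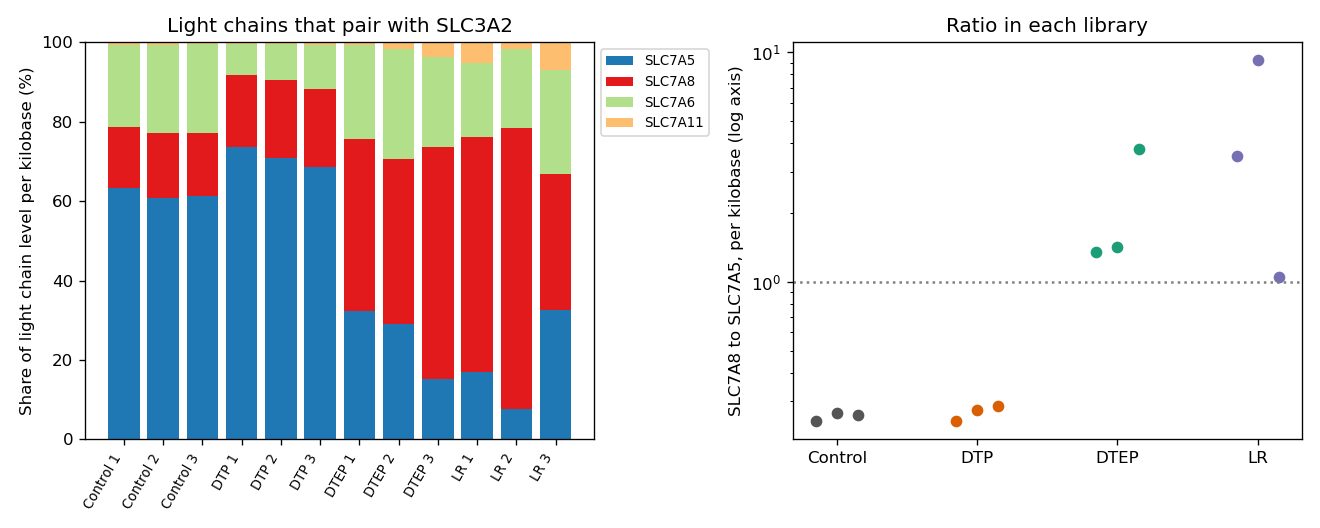
Left, the share (%, linear axis from 0 to 100) of each SLC3A2 light chain in their summed level per kilobase, with a bar for each of the 12 libraries. Right, the ratio of SLC7A8 to SLC7A5 per kilobase (log axis, dotted line at 1), which lies at or below 0.286 in Control and DTP and from 1.05 to 9.21 in DTEP and LR.

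SLC1A5, SLC38A1 and SLC38A2 supply the cell with glutamine and small neutral amino acids. All of them fell in DTP and rose again in DTEP. SLC1A5, the exchanger also known as ASCT2 (chromosome 19, 46774883 to 46788594, minus strand), read 262, 261 and 277 in Control and 110, 104 and 88.8 in DTP. It read 471, 441 and 431 in DTEP and 525, 580 and 618 in LR, so the libraries of each group stayed clear of every other group. The mean fell 2.64-fold from 266 ± 8.72 in Control to 101 ± 10.95 (SD, n = 3) in DTP (log2 change -1.40 ± 0.12, adjusted p = 4.0e-06). It then rose 4.44-fold to DTEP (log2 change 2.14 ± 0.12, adjusted p = 3.5e-08), the single upward call among the members in this transition. SLC1A5 was above Control in DTEP by 1.68-fold (log2 change 0.75, adjusted p = 0.000203) and in LR by 2.16-fold (1.10, adjusted p = 7.3e-06). LR against DTEP gave 0.36 (adjusted p = 0.0743), and 0.33 (adjusted p = 0.0389) without DTEP replicate 3, and passed with DESeq2 (0.00839).

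SLC38A1, known as SNAT1 (chromosome 12, 46183063 to 46269043, minus strand), loads the cell with glutamine along the sodium gradient. It read 1022, 1027 and 910 in Control, 361, 458 and 677 in DTP, 651, 896 and 1159 in DTEP, and 1305, 1654 and 1116 in LR. The DTP libraries were below all Control libraries and overlapped DTEP, which in turn spanned the Control values. The fall from Control to DTP was 1.98-fold (log2 change -1.03 ± 0.26, adjusted p = 0.00532), and the rise from DTP to DTEP 1.81-fold (0.86, adjusted p = 0.0102, or 0.0553 without DTP replicate 1). DTEP against Control gave a log2 change of -0.17 (adjusted p = 0.604), which was 0.05 without DTEP replicate 1. LR was above Control in every library, but its log2 change of 0.44 missed the threshold (adjusted p = 0.152, or 0.0371 with only the 6 libraries compared). LR against DTEP gave 0.61 (adjusted p = 0.119), and 0.81 (adjusted p = 0.0202) without DTEP replicate 3.

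SLC38A2, known as SNAT2 (chromosome 12, 46358188 to 46372773, minus strand), is the neighbour of SLC38A1 and the family member best known to be raised by amino acid starvation. It read 373, 383 and 321 in Control, 165, 202 and 263 in DTP, 321, 415 and 667 in DTEP, and 960, 1151 and 684 in LR. LR was above all other libraries, and DTEP overlapped Control. From Control to DTP the level fell 1.71-fold (log2 change -0.79 ± 0.27, adjusted p = 0.0261), a call lost without Control replicate 1 (0.0721) or 2 (0.0776) or DTP replicate 1 (0.113) or 2 (0.0698), and with edgeR (0.0504). It rose 2.23-fold from DTP to DTEP (1.11, adjusted p = 0.00292). LR stood 2.60-fold above Control (log2 change 1.35 ± 0.27, adjusted p = 0.000930), which held under all 23 alternatives. The step from DTEP to LR (1.03, adjusted p = 0.0433) was lost in 13 of 23. Among these were leaving out any 1 of the Control libraries (0.0682 to 0.0709), of the DTP libraries (0.0509 to 0.0711), DTEP replicate 1 (0.139) or 2 (0.145), and LR replicate 1 (0.104) or 2 (0.134). Per kilobase the ratio of SLC38A1 to SLC38A2 was 1.59 to 1.68 in the Control libraries, 1.30 to 1.53 at DTP, 1.03 to 1.28 at DTEP and 0.805 to 0.966 at LR. The groups of this ratio did not overlap, and SLC38A2 led in LR alone. Over the 12 libraries the log2 values of these neighbours had a Pearson r of 0.93, as a description, since the libraries fall into 4 groups.

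SLC7A1 and SLC7A2 encode the cationic amino acid carriers CAT1 and CAT2, which take up arginine, lysine and ornithine. Control cells had them at about equal levels per kilobase, and LR cells had lost SLC7A2 and gained SLC7A1. SLC7A1 (chromosome 13, 29509414 to 29595688, minus strand) read 171, 179 and 170 in Control, 108, 116 and 139 in DTP, 133, 159 and 174 in DTEP, and 257, 195 and 331 in LR. All LR libraries were above all others, and DTEP overlapped both Control and DTP. DTP was lower than Control (log2 change -0.52 ± 0.18, adjusted p = 0.0286), a call lost without any single Control library (0.0628 to 0.0810), without DTP replicate 1 (0.104) or 2 (0.0861), and with edgeR (0.0559). The change from DTP to DTEP was 0.36 (adjusted p = 0.0988, or 0.0489 without DTEP replicate 1 and 0.04997 without LR replicate 2). LR was 1.68-fold above DTEP (0.72, adjusted p = 0.0393) and 1.51-fold above Control (0.55, adjusted p = 0.0184). The step from DTEP was lost in 11 of 23 alternatives, among them leaving out any 1 of the Control libraries (0.0663 to 0.0676), DTP replicate 1 (0.0559) or 2 (0.0666), DTEP replicate 1 (0.126) or 2 (0.122), or LR replicate 1 (0.0939) or 3 (0.0726). The difference from Control was lost without Control replicate 1 (0.0509) or 3 (0.0521) or LR replicate 3 (0.0828).

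SLC7A2 read 197, 208 and 180 normalised read counts in Control and 102, 116 and 140 in DTP. It read 33.1, 15.6 and 2.25 in DTEP and only 0.211, 0.0553 and 0.921 in LR, which stand for 5, 1 and 19 reads. Each group lay wholly below the group before it, in the order Control, DTP, DTEP and LR. The first step had a log2 change of -0.72 ± 0.62 (adjusted p = 0.347), with an SE that pools the wide DTEP group, and an adjusted p of 0.000791 with only the 6 libraries compared and 0.0362 without DTEP replicate 3. DTEP was 7.004-fold below DTP (log2 change -3.28, adjusted p = 0.000499) and 11.5-fold below Control (-4.00, adjusted p = 0.000146). LR was 42.9-fold below DTEP (log2 change -3.18, adjusted p = 0.0161), a call lost with only the 6 libraries compared (0.260) and on leaving out DTEP replicate 2 (0.0874), LR replicate 1 (0.0536) or 2 (0.0603). LR was 493-fold below Control (-7.18, adjusted p = 9.5e-07), and no alternative lost that call. These folds turned on single libraries. LR replicate 3 held most of the LR reads, and without it LR was 127-fold below DTEP and 1464-fold below Control. Without DTEP replicate 1, DTEP was 13.3-fold below DTP and 21.9-fold below Control, and LR 22.6-fold below DTEP. Per kilobase, the ratio of SLC7A2 to SLC7A1 was 1.02 to 1.12 in Control and 0.904 to 0.968 in DTP, then 0.0124 to 0.240 in DTEP and 0.000274 to 0.00269 in LR.

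SLC6A14 encodes ATB0,+, a sodium- and chloride-driven carrier that concentrates nearly all neutral and cationic amino acids. No read of it was left in LR. Its promoter is shown because it alone had 0 reads in all 3 LR libraries, on the plus strand at chrX:116436356-116436655 of GRCh38.p14 as RefSeq gives it, and held none of the 3 motifs searched, so no letters are in capitals.
SLC6A14 promoter: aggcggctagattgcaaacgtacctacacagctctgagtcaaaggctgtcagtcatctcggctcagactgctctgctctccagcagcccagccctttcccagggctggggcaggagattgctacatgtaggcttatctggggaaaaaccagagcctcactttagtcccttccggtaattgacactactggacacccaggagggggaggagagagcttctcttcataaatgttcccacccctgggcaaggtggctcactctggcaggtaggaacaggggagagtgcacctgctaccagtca

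SLC6A14 (chromosome X, 116436606 to 116461458, plus strand) read 60.2, 61.4 and 53.5 in Control, 21.3, 24.0 and 30.9 in DTP, and 3.25, 1.52 and 0.168 in DTEP. The DTEP values stand for 68, 37 and 3 reads, and all 3 LR libraries had 0 reads. No group overlapped another. DTP was 2.30-fold below Control (log2 change -1.18 ± 0.35, adjusted p = 0.0142), a call lost without DTP replicate 1 (0.0568), with a pseudocount of 0.1 (0.146), with edgeR (0.0798) and with DESeq2 (0.0785). DTEP was 15.4-fold below DTP (-3.49 ± 0.35, adjusted p = 3.6e-06) and 35.4-fold below Control (-4.67, adjusted p = 4.1e-07). LR was at least 351-fold lower than Control, against the highest limit that 3 reads allow in a library of the group, and its fitted log2 change was -5.89 (adjusted p = 4.9e-08). DTEP replicate 1 held most of the DTEP reads, and without it DTEP was 30.0-fold below DTP and 69.0-fold below Control. Against DTEP, LR was at least 9.93-fold lower, or at least 5.10-fold lower without DTEP replicate 1, with a fitted log2 change of -1.22, on values with 1 added, that missed the threshold (adjusted p = 0.0556). With a pseudocount of 0.5 the adjusted p was 0.0404 and with 0.1 it was 0.0118, with edgeR 0.0124 and with DESeq2 1.3e-06, and it was 0.000199 without DTEP replicate 3.

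SLC1A1, known as EAAT3 (chromosome 9, 4490468 to 4587469, plus strand), takes up glutamate and aspartate, and cysteine as well. Per kilobase it had the lowest level of the members in Control, and it had the largest fall at day 9. It read 11.5, 11.2 and 11.2 in Control, 2.82, 2.91 and 4.09 in DTP, and 1.00, 0.330 and 0.112 in DTEP. The LR libraries held 0, 0 and 4 reads, or 0.194 in the last. Control, DTP and DTEP did not overlap, and LR overlapped DTEP through that last library. DTP was 3.45-fold below Control (log2 change -1.54 ± 0.21, adjusted p = 9.2e-05), and DTEP was 23.4-fold below it (-3.10, adjusted p = 1.4e-07), or 51.1-fold without DTEP replicate 1. LR against Control gave a log2 change of -3.53 (adjusted p = 3.9e-08), and LR against DTEP -0.44 (adjusted p = 0.154, or 0.0228 without DTEP replicate 3 and 0.0120 with DESeq2). The calls of SLC1A1, SLC6A14 and SLC7A2 against Control in DTEP and LR held under every alternative in which the gene was tested.

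ESR1, the estrogen receptor of luminal breast cells, ran down beside these 3 genes. It is 1 of the 6 listed regulators, and the only one of them drawn with these genes. It read 150, 153 and 149 in Control, 93.5, 101 and 122 in DTP, 16.7, 6.88 and 0.842 in DTEP, and 0.211, 0.0553 and 0.194 in LR. DTP against Control missed the threshold (log2 change -0.52, adjusted p = 0.467). DTEP was lower than DTP (log2 change -4.05, adjusted p = 5.2e-05) and LR lower than DTEP (-2.47, adjusted p = 0.0308). Within DTEP, replicate 1 was the highest and replicate 3 the lowest library for ESR1 and for each of SLC7A2, SLC6A14 and SLC1A1. Among the other regulators MYC had the same order (210, 143 and 40.0), and ATF4, NFE2L2, HIF1A and EPAS1 did not. Of the luminal markers KRT8, KRT18, KRT19 and CDH1 had it too, and EPCAM, ERBB2, GATA3 and FOXA1 did not. Replicate 3 was the DTEP library nearest to the LR mean for 65.0% of all genes tested, so its low values here may not be particular to these genes. Whether the receptor has a part in their fall was not tested.

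**Figure D4:**
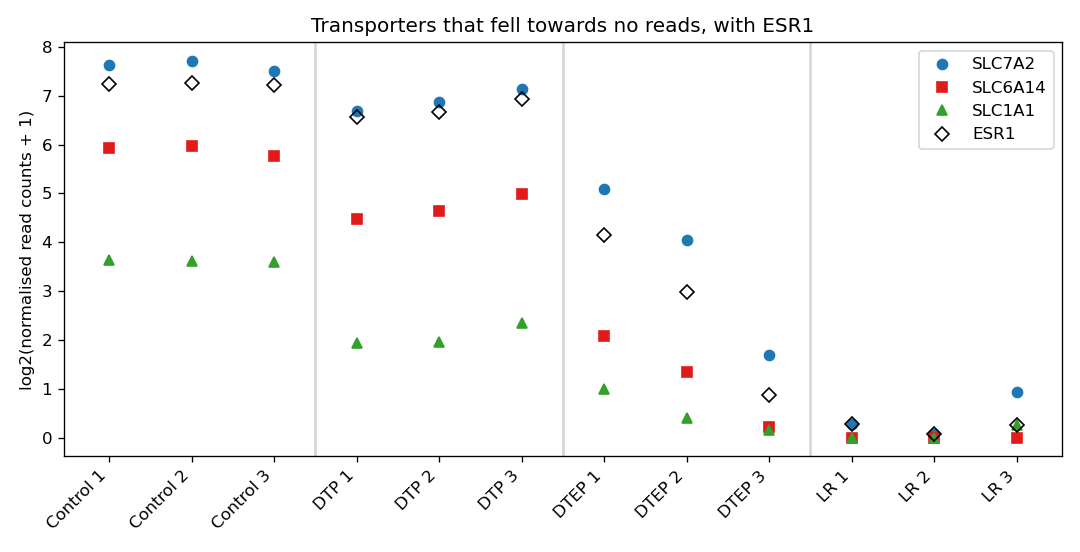
log2(normalised read counts + 1) of SLC7A2, SLC6A14, SLC1A1 and the estrogen receptor gene ESR1 in each of the 12 libraries (horizontal axis, vertical lines between the groups). All 4 fall towards 0 from Control to LR, and within DTEP all 4 are highest in replicate 1 and lowest in replicate 3.

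The order of the members per kilobase was redrawn along the treatment. In Control SLC38A1 led with 122 ± 8.14 (SD, n = 3) normalised read counts per kilobase, ahead of SLC3A2 at 96.0 ± 3.82 and SLC1A5 at 92.5 ± 3.03, which were within their spread of each other. In DTP SLC3A2 led with 191 ± 18.3, then SLC7A5 with 99.98 ± 7.96, and SLC1A5 was at 35.0 ± 3.80. In DTEP SLC1A5 led with 155 ± 7.12, ahead of SLC3A2 at 127 ± 7.70 and SLC38A1 at 111 ± 31.4, the last pair being within their spread. In LR SLC1A5 at 199 ± 16.3, SLC38A2 at 194 ± 49.0, SLC38A1 at 168 ± 33.7 and SLC3A2 at 165 ± 26.1 all lay within their spread of each other. SLC7A2, SLC1A1 and SLC6A14 held the last 3 places in LR, at or below 0.0520.

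The other genes of amino acid supply also moved in both directions. Of 33 other amino acid carriers of the cell surface 16 could be tested, and 4 rose and 7 fell in DTP against Control, 9 rose and 4 fell in DTEP against DTP, and 2 rose and 0 fell in LR against DTEP (1 fell at an unadjusted p below 0.05 with limma, and 0 with edgeR or DESeq2). Their median log2 changes were -0.14, 0.85 and 0.04, beside -0.01, 0.08 and -0.07 over all genes. With genes of a mean of at least 5 only, which tests fewer of them, 6 in place of 11 passed in the first step and 8 in place of 13 in the next. For these and the lists that follow, all genes rose and fell in shares of 25.2% and 28.8% at the step to DTP, 35.7% and 32.6% at the step to DTEP, and 3.04% and 4.31% at the step to LR. A list share near these says nothing particular about the list. The glycine carrier SLC6A9 rose in each of these steps, with means of 17.2 ± 1.37 (SD, n = 3) at Control, 41.8 ± 4.404 at DTP, 87.5 ± 18.5 at DTEP and 154 ± 8.47 at LR, with adjusted p-values of 5.8e-05, 8.6e-05 and 0.0142. SLC36A4, a carrier of proline and tryptophan, had the lowest log2 change in DTP (-1.77, adjusted p = 4.4e-05). SLC43A1, a carrier of branched-chain amino acids, had the lowest in DTEP against DTP (-2.27, adjusted p = 1.9e-06). SLC1A7, a glutamate carrier, had 0 reads in Control and DTP, but 114, 50.9 and 2.58 normalised read counts in DTEP and 0.253, 3.93 and 263 in LR. It passed in DTEP against DTP (log2 change 4.79, adjusted p = 0.0186) and DTEP against Control (adjusted p = 0.0221), with a wide range within both long-treated groups. SLC36A1, a proton-driven carrier of small amino acids, rose from 12.8 ± 1.26 in DTEP to 20.8 ± 3.91 in LR (adjusted p = 0.0459).

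Targets of ATF4, the factor that amino acid shortage raises, were 22 listed genes with 21 tested. The list includes ATF4 itself, so its own change is part of these counts. SLC7A11, SESN2 and ASNS on it are also counted among the other carriers, the sensing genes and the enzymes, and ATF4 among the regulators. In DTP against Control 10 rose and 2 fell, with a median log2 change of 0.34, in DTEP against DTP 7 rose and 9 fell (0.01), and in LR against DTEP 2 rose and 1 fell (0.26). DDIT3, the stress factor CHOP, had the largest rise in DTP, from 36.2 ± 0.856 to 148 ± 14.8 (log2 change 1.996, adjusted p = 3.8e-05). PSAT1, an enzyme of serine synthesis, fell from 65.5 ± 8.30 in DTP to 1.85 ± 1.79 in DTEP (-4.71, adjusted p = 1.4e-07) and to 0.0994 ± 0.0525 in LR (-1.21, adjusted p = 0.0433). CHAC1, which degrades glutathione, had the largest rise in LR against DTEP, from 9.36 ± 6.77 to 27.9 ± 8.17 (1.63, adjusted p = 0.0283). VLDLR, a lipoprotein receptor on the list, fell in DTP (-1.51, adjusted p = 0.000165) and rose most in DTEP (2.04, adjusted p = 5.9e-06). ATF4 itself read 290, 294 and 300 in Control, and 558, 538 and 473 in DTP (log2 change 0.82, adjusted p = 0.000562). It stayed higher than Control in DTEP (0.84, adjusted p = 0.000339) and LR (0.71, adjusted p = 0.00105). SLC38A2, SLC7A5 and SLC3A2, often named among ATF4 targets themselves, had log2 changes of -0.79, 0.83 and 0.98 at the step at which ATF4 rose. Further members may be targets too. Of these SLC7A8 had 0.88 at that step, while SLC1A1, SLC1A5 and SLC6A14 had -1.54, -1.40 and -1.18. SLC38A1, SLC7A2 and SLC7A1 had -1.03, -0.72 and -0.52.

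Of the 20 cytosolic aminoacyl-tRNA synthetases, which load the transported amino acids onto tRNAs, 5 rose and 1 fell in DTP, 5 rose and 4 fell in DTEP against DTP, and 0 rose and 1 fell in LR against DTEP. In the last step 2 rose at an unadjusted p below 0.05 with limma, 1 rose with edgeR and 2 with DESeq2. The median log2 changes were 0.24, -0.06 and -0.09. CARS, for cysteine, had the largest rise in DTP (0.90, adjusted p = 0.00149) and DARS, for aspartate, the single fall (-0.46, adjusted p = 0.0279). From DTP to DTEP, EPRS, for glutamate and proline, rose from 224 ± 26.9 to 604 ± 36.0 (1.43, adjusted p = 4.2e-06), and AARS, for alanine, fell from 825 ± 29.6 to 363 ± 26.1 (-1.18, adjusted p = 2.4e-06). QARS, for glutamine, fell in LR against DTEP (-0.54, adjusted p = 0.0417).

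Of 27 tested genes of amino acid sensing upstream of mTORC1, 11 rose and 4 fell in DTP, 8 rose and 6 fell in DTEP against DTP, and 3 rose and 1 fell in LR against DTEP, with medians of 0.29, 0.17 and 0.03. The leucine sensor SESN2 had the largest rise in DTP, from 23.4 ± 0.784 to 53.1 ± 5.75 (1.14, adjusted p = 0.000252). FNIP2, a partner of folliculin, fell to 6.06 ± 2.93 in DTP (-2.77, adjusted p = 0.000179) and rose in DTEP (2.14, adjusted p = 0.000572) and LR (1.90, adjusted p = 0.0239). LAMTOR1, the lysosomal anchor of the complex, fell from 283 ± 45.5 in DTP to 95.9 ± 39.3 in DTEP (-1.62, adjusted p = 0.000111). NPRL3, a subunit of the GATOR1 brake, fell in LR against DTEP (-0.54, adjusted p = 0.0444).

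Among 22 tested enzymes that act on the transported amino acids, 4 rose and 7 fell in DTP, 10 rose and 7 fell in DTEP against DTP, and 0 passed in LR against DTEP. In that last step 1 rose and 7 fell at an unadjusted p below 0.05 with limma, 0 rose and 3 fell with edgeR, and 1 rose and 5 fell with DESeq2. The median log2 changes were -0.19, 0.42 and -0.22. Glutamine synthetase, GLUL, rose from 67.0 ± 2.93 in Control to 200.01 ± 16.1 in DTP (1.56, adjusted p = 0.000663). The glutamine carriers SLC1A5, SLC38A1 and SLC38A2 were at their lowest in DTP. As they rose again GLUL did not fall back, with 363 ± 159 in DTEP (0.75 against DTP, adjusted p = 0.0321). It read 486 ± 85.7 in LR (0.52 against DTEP, adjusted p = 0.200). ARG2, a mitochondrial arginase, had the largest fall in DTP against Control (-1.61, adjusted p = 0.00245). Ornithine aminotransferase, OAT, rose from 5.12 ± 1.27 in DTP to 138 ± 28.2 in DTEP (4.50, adjusted p = 3.9e-09), and asparagine synthetase, ASNS, fell from 183 ± 4.46 to 51.1 ± 14.7 (-1.86, adjusted p = 0.000323).

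Of the 6 known regulators of the members 3 rose and 1 fell in DTP, 1 rose and 2 fell in DTEP against DTP, and 0 rose and 1 fell in LR against DTEP (1 rose at an unadjusted p below 0.05 with limma, and 0 with edgeR or DESeq2). The mRNA of MYC, a transcription factor that drives growth, rose and fell in the same steps as SLC7A5. By the sign of the log2 change SLC3A2 did so too, while SLC1A5, SLC7A1, SLC38A1 and SLC38A2 went the other way in both steps. SLC7A2, SLC6A14 and SLC1A1 fell in both steps, and SLC7A8 rose in both. MYC read 96.1, 97.6 and 100.1 in Control, 289, 270 and 266 in DTP, 210, 143 and 40.0 in DTEP, and 62.0, 35.0 and 116 in LR. It rose in DTP (1.48, adjusted p = 0.0278) and fell in DTEP against DTP (-1.36, adjusted p = 0.0320). These values are of MYC mRNA and do not measure its activity. By gene set scores the study reports MYC signalling as inhibited in DTP and reactivated in DTEP, the opposite direction. Within each of DTP, DTEP and LR, the library lowest in MYC was also the lowest in SLC7A5, but within Control it was the highest in SLC7A5. With 3 libraries in a group such matches arise easily. In DTP that library, replicate 3, was also the lowest in SLC1A5, SLC3A2, SLC7A8 and ATF4, and the highest in the remaining members. In DTEP that library was replicate 3, which was also nearest to the LR mean for 65.0% of all genes tested. HIF1A fell from 341 ± 13.4 in Control to 92.3 ± 32.2 in DTP (-1.93, adjusted p = 0.000163), while EPAS1, the related hypoxia factor HIF2A, rose in DTP (0.96, adjusted p = 8.4e-05) and in DTEP (1.25, adjusted p = 3.7e-06). NFE2L2, the factor of the antioxidant response, gave adjusted p-values of 0.346, 0.0667 and 0.529 in the 3 steps. What part these factors have in the carriers' levels was not tested.

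From Control to LR, 4 of the 16 other carriers rose and 7 fell, 11 of the 21 ATF4 targets rose and 3 fell, 6 of the 20 synthetases rose and 7 fell, 13 of the 27 sensing genes rose and 6 fell, and 4 of the 22 enzymes rose and 7 fell. The median log2 changes were -0.32, 0.59, -0.07, 0.40 and -0.22 in the same order, beside -0.03 over all genes, of which 30.2% rose and 32.6% fell. With a mean of at least 5, 6 of the other carriers passed in place of 11.

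For each called member the genes most like it over the 12 libraries were found by Pearson r of log2(value + 1) among all genes tested, as a description without a test. They were VDR and FAM155B for SLC1A5 (r of 0.99 and 0.99), ME1 and SGCB for SLC6A14 (1.00 and 1.00), and ATP9A and NRCAM for SLC7A2 (1.00 and 1.00). For SLC1A1 they were RAB3B and TRIM6 (1.00 and 0.99) and for SLC7A8 CD9 and STIM1 (0.98 and 0.98). With 4 groups that stand apart, values near 1 arise easily, and the neighbours are named only. Among the members, SLC6A14 had an r of 0.97 with SLC1A1 and of 0.97 with SLC7A2, while SLC3A2 had 0.19 with its light chain SLC7A5 and 0.49 with SLC7A8.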

How the data were processed

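The study made stranded mRNA libraries from BT474 cells, aligned reads to hg38 with Rsubread and counted them on RefSeq genes. The deposited table holds a normalised signal per gene and library, which the authors scaled by library size. All 199680 values above 0 (100.0%, within 1e-06) were whole multiples of the value of 1 read, and they equalled CPM of a TMM-scaled library size. Depth was 16383363 to 25030482 assigned reads. Limits of 3 reads cover counting error only.

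Groups came from the sample titles. limma 3.58.1 (R 4.3.3) was fitted to log2(value + 1) of all 12 libraries with a variance trend, for the genes that reached 1 in 3 or more libraries, with Benjamini-Hochberg adjustment, two-sided. A log2 change understates the change of low genes. edgeR 4.0.16 and DESeq2 1.42.0 on recovered reads, other pseudocounts, filters and scalings, a replicate block and leaving out each library were alternatives. On simulated reads for DTP against Control, limma recovered 200 of 200 genes changed 8-fold, with 0 false calls among 13396 genes tested. That simulation gave every group the same spread and changed only genes well above the filter. It therefore does not cover groups of unequal spread, smaller changes or members with few reads. Coordinates and promoters are RefSeq's on GRCh38.p14 (the build hg38 names), and transcript lengths are GENCODE's. The study counted with the package's defaults, under which strand is not used, so reads of genes that overlap cannot be told apart, and near-identical copies such as SLC7A5P2 (0.719 at most) may share reads with SLC7A5.

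The members and gene lists were chosen with earlier results of these data known. Named were the 10 members, the light chains of SLC3A2, 6 known regulators, the list genes with the largest and smallest log2 change among those past the threshold in each successive step, and the 2 genes most like each called member.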

Additional observations from a re-analysis of the deposited data

How the results depend on the processing

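Over the members' log2 changes, 1047 values under alternatives kept direction and side of the threshold, 67 no longer passed, 27 newly passed and 4 turned sign. The turned values were those of SLC7A5 in LR against DTEP without DTEP replicate 3 (-0.26), LR replicate 1 (-0.06) and LR replicate 3 (-0.27), and of SLC38A1 in DTEP against Control without DTEP replicate 1 (0.049), and all missed the threshold before and after. Over all leave-one-out fits these changes ran from -0.27 to 0.37 and from -0.37 to 0.049. The number of members past the threshold in DTP against Control (8) ran from 4 to 10 over the leave-one-out fits. In LR against DTEP (3) it ran from 0 to 7, and was 1 with no filter, 8 with DESeq2 and 0 with only the 6 libraries compared. Called members in LR against DTEP (1) were 0 to 1 on leaving out libraries, 2 with a pseudocount of 0.1, 2 with edgeR, 3 with DESeq2, 0 with only the 6 libraries compared and 2 at an absolute log2 change above 1. That bound of 1 also gave 4 called members in DTP against Control in place of 0, and 7 in DTEP against DTP in place of 3. The cause was not tested, except that 6 libraries leave fewer residual degrees of freedom and a lower bound admits more genes.

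Over all genes limma called 678, 2091, 94, 1466 and 1770 in the 5 comparisons in the order given in the report, edgeR 1270, 3288, 581, 2368 and 2773, and DESeq2 1271, 3254, 699, 2353 and 2760. Replicate numbers only share a number: 2 of 18 same-numbered pairs correlated above 0.1 (range -0.44 to 0.36) and the best match had its own number in 6 of 36. With the replicate block 8, 9, 2, 7 and 9 members passed and 0, 3, 1, 4 and 4 were called, and in LR against DTEP 655 genes passed in place of 1014. SLC38A2 gave an adjusted p of 0.0570 there with the block, and no other member's side of the threshold changed with it. SLC1A1 was not tested under the filter of a mean of at least 5. Depth limits SLC6A14 and SLC1A1 in LR, where 0 to 4 reads were counted.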
